A study of Caenorhabditis elegans with 2 samples.

Results

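The 10 genes described here build or switch the dosage compensation complex of Caenorhabditis elegans. They were chosen by name, sdc-1, sdc-2, sdc-3, dpy-21, dpy-26, dpy-27, dpy-28, dpy-30, capg-1 and xol-1, and all 10 were matched by symbol among 19973 nuclear protein-coding genes. Binding of LIN-15B was measured by chromatin immunoprecipitation and sequencing in 2 biological replicates of whole L3 larvae of both sexes. The worms were of strain OP184, genotype unc-119(tm4063) III; wgIs184, and carried an inserted transgene for LIN-15B fused to eGFP. The replicates form a single group and share all of these features, so no condition was set against another. The labels name lin-15B as the antibody target. They do not give the promoter that drives the transgene, and whole larvae give 1 profile over all tissues.

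Dosage compensation in this species lowers transcription from both X chromosomes of hermaphrodites so that it matches the output of the only X of males. A condensin-like complex is loaded onto X by the SDC proteins, and the gene xol-1 decides early in the embryo whether that loading is permitted, by repressing sdc-2 in males. LIN-15B is a nuclear protein with a THAP-type zinc finger that is known for repressing germline genes in somatic tissue. All of this is background and was not measured here.

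A peak was assigned to a gene when its summit, the position of highest signal in the peak, lay in the promoter window, from 500 bp upstream to 200 bp downstream of an annotated 5' end. The main list was the set of 3331 peaks kept by the irreproducible discovery rate (IDR), a threshold on how well replicates rank the same peaks. The pooled list has 30000 peaks, and ranking it by signal and taking the upper 3331 gave exactly this set. Of the 10 genes, 4 had an IDR summit in the window, sdc-1, dpy-26, dpy-30 and capg-1, against 13.4% of all protein-coding genes (2683 of 19973). All 10 have 1 or 2 annotated 5' ends, and 12.5% of protein-coding genes with so few ends had such a summit. The count rested on the window and on the list. With 200 bp upstream only dpy-26 was left, against 7.59% of all genes, and in the upper 1665 peaks of the list only dpy-26 was left too, against 8.53%.

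Sequence was examined around the highest summit in the window of the 7 genes with a pooled entry there, and around the dpy-27 summit upstream of its window, which was added after its values were seen. Of these 8 sequences, 6 are shown so that their motif matches can be read in place. The windows of capg-1 and xol-1 are not shown. Neither held GAGAGA, and both held TTTGAA. Each of the 8 sequences has 101 bases centred on the summit of the pooled data, in the direction of the gene. All are in build ce11 and were read from the RefSeq copy of the same assembly, WBcel235. Those of sdc-1, dpy-26, dpy-30 and dpy-27 belong to IDR peaks. Those of sdc-2 and sdc-3 come from the pooled list below the IDR threshold. Capitals mark matches, on either strand, to the repeat GAGAGA, to the core of an E2F site, written as GCGGGAA, or to the core of a cell cycle homology region (CHR) element, written as TTTGAA.
sdc-1 (chrX:16275345-16275445, plus strand): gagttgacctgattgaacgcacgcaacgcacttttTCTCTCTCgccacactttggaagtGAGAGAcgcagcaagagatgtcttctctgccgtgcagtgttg
sdc-2 (chrX:11522295-11522395, plus strand): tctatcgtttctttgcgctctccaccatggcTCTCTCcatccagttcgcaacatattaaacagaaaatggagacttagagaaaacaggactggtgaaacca
sdc-3 (chrV:15048260-15048360, minus strand): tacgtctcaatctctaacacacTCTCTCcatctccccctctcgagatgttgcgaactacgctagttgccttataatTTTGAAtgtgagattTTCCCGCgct
dpy-30 (chrV:12191067-12191167, plus strand): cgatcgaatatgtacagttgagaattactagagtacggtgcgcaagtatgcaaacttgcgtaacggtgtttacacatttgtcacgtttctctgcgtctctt
dpy-26 (chrIV:12451372-12451472, minus strand): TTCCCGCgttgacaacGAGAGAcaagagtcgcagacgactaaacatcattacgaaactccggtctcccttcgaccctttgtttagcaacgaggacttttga
dpy-27 (chrIII:3820296-3820396, minus strand): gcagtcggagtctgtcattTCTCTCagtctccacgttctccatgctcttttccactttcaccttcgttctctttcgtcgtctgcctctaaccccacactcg

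The repeat GAGAGA was the most frequent match at these summits. Counting also capg-1 and xol-1, 5 of the 8 windows held GAGAGA, those of sdc-1, sdc-2, sdc-3, dpy-26 and dpy-27. Of all IDR summits 26.9% held it in windows of this length, as did 8.81% of the 101-base windows that end at the outermost 5' end of each protein-coding gene. Among the 5 windows at IDR peaks, the count was 3, at sdc-1, dpy-26 and dpy-27, the last being the window added after its values were seen. The sdc-1 window held it on both strands, to either side of the summit. In sdc-2, sdc-3 and dpy-27 the match read TCTCTC along the gene. GCGGGAA was found at sdc-3 and dpy-26, beside 3.39% of IDR summits and 1.01% of the promoter windows. TTTGAA was found at sdc-3, capg-1 and xol-1, beside 18.9% of IDR summits and 29% of promoter windows. Neither GCGCGC nor the E-box CACGTG occurred in any of the 8, beside 10.1% and 3.06% of IDR summits. In promoter windows those shares were 1.09% for GCGCGC and 2.45% for CACGTG. The dpy-30 window matched none of the 5 motifs searched, like 47.2% of IDR summits and 61.2% of promoter windows. These are matches of letters and not shown sites. The same 5 windows held GAGAGA when 201 bases were searched, where 41.3% of IDR summits did.

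The windows differed in base composition. G and C made up 51.5% of the bases at sdc-1 and at dpy-27, 48.5% at dpy-26, 45.5% at sdc-3, 43.6% at sdc-2, 42.6% at dpy-30 and 39.6% at capg-1. The median over all IDR summits was 47.5%, with quartiles of 42.6% and 52.5%, and the median over promoter windows was 31.7%. Most of the genes thus lay in the range of other summits, with capg-1 below the lower quartile. At xol-1, where the window falls in coding sequence, the value was 29.7%.

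The SDC proteins and DPY-30 bring the complex to X. SDC-1 and SDC-3 are zinc finger proteins, and SDC-2 is the hermaphrodite-specific factor that recognises X. The 3 sdc genes had peaks of falling signal at their promoters, and only the sdc-1 peak passed the IDR threshold. At sdc-1 (X:16275763 to 16282534) the peak had a signal of 11.1 in replicate 1 and 19.3 in replicate 2, at ranks 3221 and 2387, and a pooled signal of 30.5 at rank 2646. The summit lay 368 bp upstream, in intergenic sequence. Its rank in replicate 1 was near the end of the 3331 highest peaks, while in replicate 2 it stood well inside them.

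At sdc-2 (X:11522707 to 11533450) the signal was 5.97 in replicate 1 (rank 5819) and 15.0 in replicate 2 (rank 2913). The pooled peak had a signal of 20.3 and rank 3639, which is 308 places below the last IDR peak, whose signal was 22.7. It lay 362 bp upstream, and its −log10 q-value stood at the ceiling of 3.96. The peak was therefore among the 3331 highest of replicate 2 but not of replicate 1. The ratio of replicate 2 over replicate 1, 2.52, was the highest among the 6 genes with a peak in the window in both replicates, whose other ratios ran from 1.07 to 1.74. On the log2 scale it was 1.33, where the median over 3322 IDR peaks was 0.26 with quartiles of -0.06 and 0.59. The sdc-2 peak is not among these IDR peaks, which have higher pooled signals. The IDR list equals the 3331 highest pooled peaks, so a place in it does not by itself show that the replicates agree at a peak. It holds, for example, the peak at fem-2, with 5.57 in replicate 1 and 23.9 in replicate 2. The spread of weaker peaks was not measured.

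At sdc-3 (V:15039148 to 15048207) the signal was 4.69 in replicate 1 and 6.87 in replicate 2, and the pooled peak, 103 bp upstream, had a signal of 10.8 at rank 6142. Its −log10 q-value of 2.77 was below the ceiling. A weaker pooled entry lay 308 bp upstream with a signal of 4.37 at rank 21171. Both sdc-3 entries were outside the IDR list.

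DPY-30 is also a core subunit of complexes that methylate histone H3 lysine 4, and it acts on many genes. Its gene (V:12191519 to 12192385) had an IDR peak with a signal of 15.8 in replicate 1 and 16.9 in replicate 2, at ranks 2411 and 2668, and a pooled signal of 35.0 at rank 2383. The summit lay 402 bp upstream, the farthest of the 4 called genes. The nearest 5' end of another protein-coding gene, that of rnp-1, was 1156 bp away. It lies downstream of the summit on the same strand as dpy-30, within the bounds of dpy-30. Whether dpy-30 and rnp-1 are transcribed together was not tested.

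**Figure D1:**
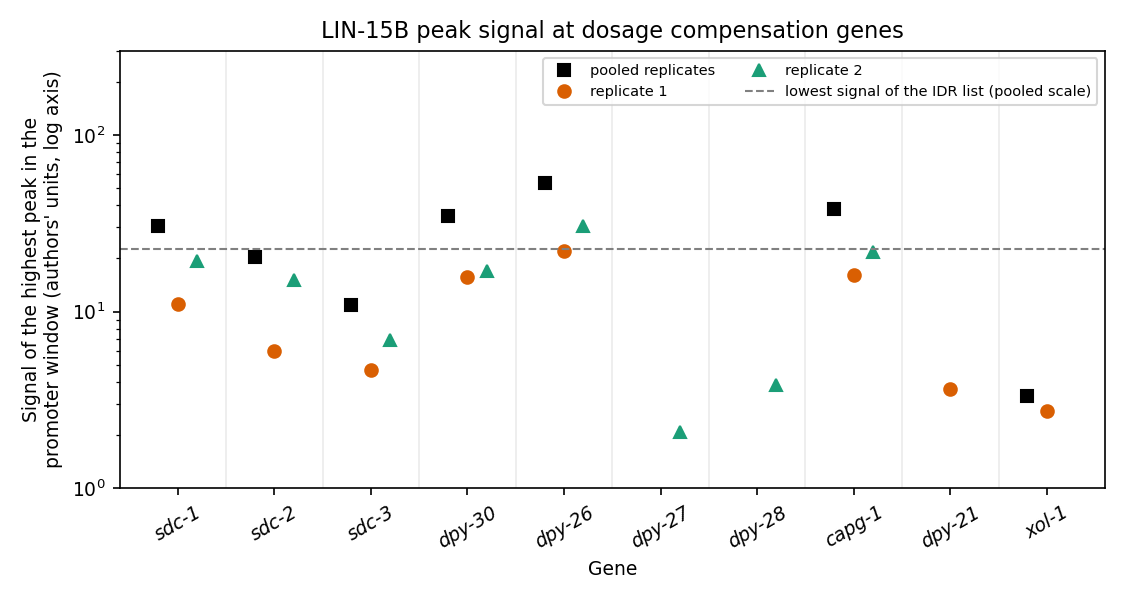
Signal of the highest peak in the promoter window of each gene in the pooled list and in each replicate, in the authors' units on a log axis, with no symbol where a list had no entry and a dashed line at the lowest signal of the IDR list. The pooled symbols of sdc-1, dpy-30, dpy-26 and capg-1 stand above 22.7, that of sdc-2 just below it at 20.3, and the remaining genes lower or without a pooled entry.

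The condensin-like core holds the SMC proteins DPY-27 and MIX-1, the kleisin DPY-26, and the HEAT-repeat proteins DPY-28 and CAPG-1. The gene mix-1 is not among the 10 and is described below with the other condensin subunits. Of the remaining 4 core genes 2 had an IDR summit in the window. The highest window signal of all 10 was at dpy-26 (IV:12445801 to 12451335), with 22.0 in replicate 1 and 30.4 in replicate 2, at ranks 1805 and 1591, and 53.7 in the pooled data at rank 1643. Its summit lay 87 bp upstream, the closest to a 5' end among the called genes. The bound genes next to it in signal were istr-1 (53.7, rank 1642) and F48F7.6 (53.7, rank 1645), a likeness in pooled signal alone over a single list.

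At capg-1 (I:7634492 to 7639785) the signal was 16.2 in replicate 1 and 21.6 in replicate 2, at ranks 2352 and 2180, with a pooled signal of 38.1 at rank 2212. The summit lay 291 bp upstream, between capg-1 and F26A3.1. A separate IDR peak 3532 bp upstream (52.2, rank 1694) lay 11 bp inside ncbp-2, in its 5' UTR, and in the promoter window of that gene alone.

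At dpy-27 (III:3813018 to 3819679), the SMC subunit found only in this complex, the IDR peak stood just outside the window. It lay 667 bp upstream in intergenic sequence, with signals of 39.3 in replicate 1 (rank 985), 22.3 in replicate 2 (rank 2110) and 60.2 in the pooled data (rank 1459). That pooled signal was above that of dpy-26. The replicates differed in this order, as dpy-26 had 22.0 in replicate 1 and 30.4 in replicate 2. Among protein-coding genes the dpy-27 5' end was the nearest to it, with the next one, of the divergent gene amx-1, 2057 bp away. The 201 bases around the summit overlapped an annotated exon that lies outside dpy-27. Genes of other types were not searched for nearer 5' ends. With a window of 1000 bp upstream dpy-27 joined the called genes, making 5 of 10 against 16.2% of all genes. Inside the window of 500 bp only the list of replicate 2 had an entry, with a signal of 2.09 at rank 26526.

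At dpy-28 (III:10763131 to 10777076) no pooled entry lay in the window. Replicate 2 had an entry 113 bp upstream with a signal of 3.85 (rank 12941), within the 3' UTR of tasp-1. The tasp-1 gene, which encodes a protease of the taspase family, ends 110 bp before dpy-28 on the same strand. Its promoter had the IDR peak of rank 6 in the list, with signals of 442 in replicate 1, 534 in replicate 2 and 976 in the pooled data. That summit lay 42 bp upstream of tasp-1 and 3866 bp upstream of dpy-28. Closely spaced genes on a strand are often transcribed together in this species, but whether dpy-28 and tasp-1 are was not tested, and operon annotation was not used here.

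DPY-21 is a demethylase that acts on dimethylated histone H4 lysine 20 and enriches the monomethyl form on X. Its gene (V:17936282 to 17949193) had no pooled entry in the window, and only replicate 1 had an entry there, with a signal of 3.64 at rank 11716. A high IDR peak stood 2244 bp upstream, with signals of 168 in replicate 1, 169 in replicate 2 and 338 in the pooled data, at rank 121. It lay 512 bp from the 5' end of the divergent neighbour Y59A8B.24, and so 12 bp outside the promoter window of that gene and in the window of none.

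XOL-1, a protein related to small-molecule kinases, is the switch that sets male development and keeps dosage compensation off. Its gene (X:8041313 to 8044409) had a pooled entry of 3.31 at rank 29711, close to the end of the list, 126 bp downstream of the 5' end in coding sequence. Replicate 1 had an entry of 2.73 at rank 17535 and replicate 2 had none in the window. An IDR peak lay 4918 bp upstream with signals of 17.8 in replicate 1, 21.2 in replicate 2 and 32.1 in the pooled data, at rank 2538. No other protein-coding 5' end was nearer to it, as the next one, of C34D10.1, was 6916 bp away.

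**Figure D2:**
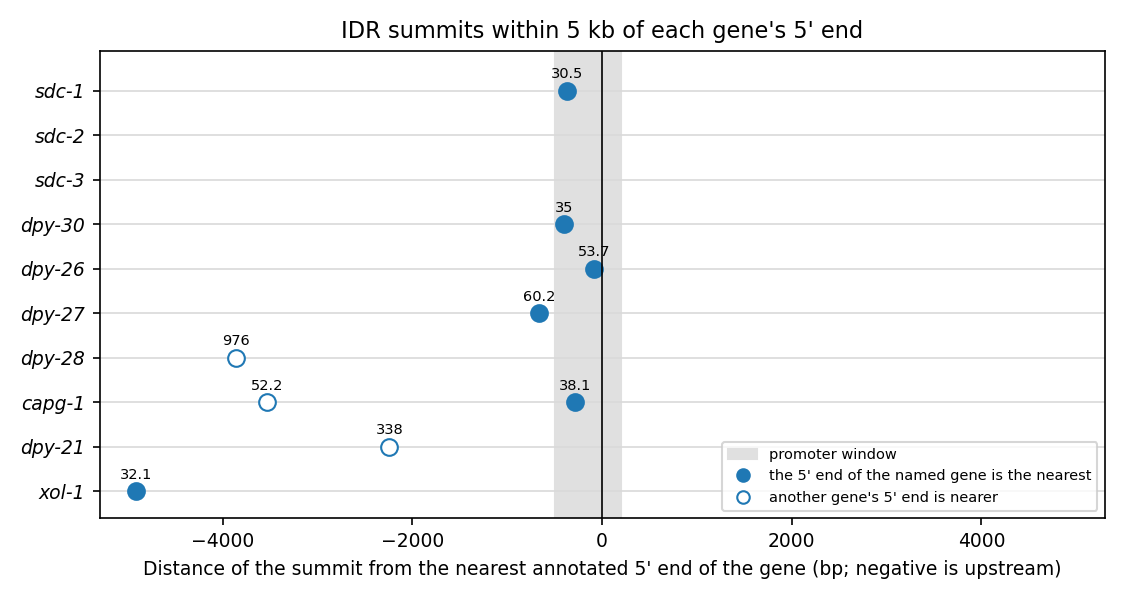
Position of each IDR summit within 5 kb of the 10 genes, as distance in bp from the nearest annotated 5' end of the gene, with the pooled signal above each point and the promoter window shaded. Filled points mark summits whose nearest protein-coding 5' end is that of the named gene. They lie in the window at 4 genes, at 667 bp upstream of dpy-27 and at 4918 bp upstream of xol-1. The open points at dpy-28, dpy-21 and capg-1 lie nearer to other genes.

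All 9 IDR summits within 5 kb of these genes lay upstream. At least 1 was found at 8 of the 10 genes, the exceptions being sdc-2 and sdc-3, against 34.4% of all protein-coding genes. Within 2 kb the count was 5, against 22.2% of all genes. Of the 9 summits, those at dpy-21 and dpy-28 and the farther of the pair at capg-1 had a 5' end of another gene nearer to them. Counting only summits whose nearest protein-coding 5' end was that of the gene itself left 6 genes, sdc-1, dpy-26, dpy-27, dpy-30, capg-1 and xol-1, against 14.7% of all genes. None of the 10 genes had an IDR summit inside the gene, where 3.6% of all genes did. In the pooled list 9 of the 10, all but dpy-30, had from 1 to 5 entries inside the gene, against 41.3% of all protein-coding genes with at least 1. These 9 genes are 3097 to 13946 bp long, and 70.7% of all genes in that range of length had an entry inside. The range was set by the genes with an entry, so it leaves out dpy-30, which is 867 bp long and had none. The highest entry inside any of the 9 was at dpy-28, with a signal of 6.16 at rank 12787.

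No other protein-coding gene shared the window peaks of the 4 called genes, where 46.2% of all called genes shared their highest window peak. Of the 2098 IDR peaks in promoter windows, 70.5% lay in the window of a single gene. The 4 summits were all intergenic, and 3 of them lay farther upstream than the median of all called genes, 176 bp. Their 4 peaks all had a width of 310 bp, which is also the median width of the IDR list, so each summit is the middle of an interval of fixed width. Replicate summits were 36 bp apart at sdc-1 and capg-1, 23 bp at dpy-26 and 18 bp at dpy-30, where the median over all IDR peaks was 19 bp.

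The 4 called genes stood in the lower part of the bound genes by signal. The median over all 2683 was 70.5 with quartiles of 41.3 and 137. The pooled signals of the 4 were all below that median, and those of sdc-1, dpy-30 and capg-1 were below the lower quartile. The order in the pooled list was dpy-26, capg-1, dpy-30, sdc-1, sdc-2, sdc-3 and xol-1, with no entry for the remaining 3. Replicate 1 gave the first 6 in the same order, and in replicate 2 dpy-30 and sdc-1 changed places. The replicate signals of dpy-26 did not overlap with those of any other of these genes, whereas among neighbours in the order capg-1 and dpy-30 overlapped, as did dpy-30 and sdc-1, sdc-1 and sdc-2, and sdc-2 and sdc-3. The scale of the replicate signals is not known, so these spreads also hold any difference in scale between the lists.

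Each replicate called the same 4 genes among its 3331 highest peaks, and replicate 2 called sdc-2 as well. Of all protein-coding genes, replicate 1 called 13.0% in this way and replicate 2 called 13.3%. A summit in the window in both was found at those 4 genes, against 11.6% of all protein-coding genes. Among all 30000 pooled entries, which include background, 7 of the 10 genes had a summit in the window, against 36.8% of all genes. Within the 6662 highest pooled peaks, the 4 called genes were joined by sdc-2 and sdc-3, making 6 of 10 against 18.8% of all genes. By chromosome, 1 of the 3 genes on X was called, sdc-1, where 7.36% of X genes were, and 3 of the 7 autosomal genes were, where 14.4% of autosomal genes were.

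**Figure D3:**
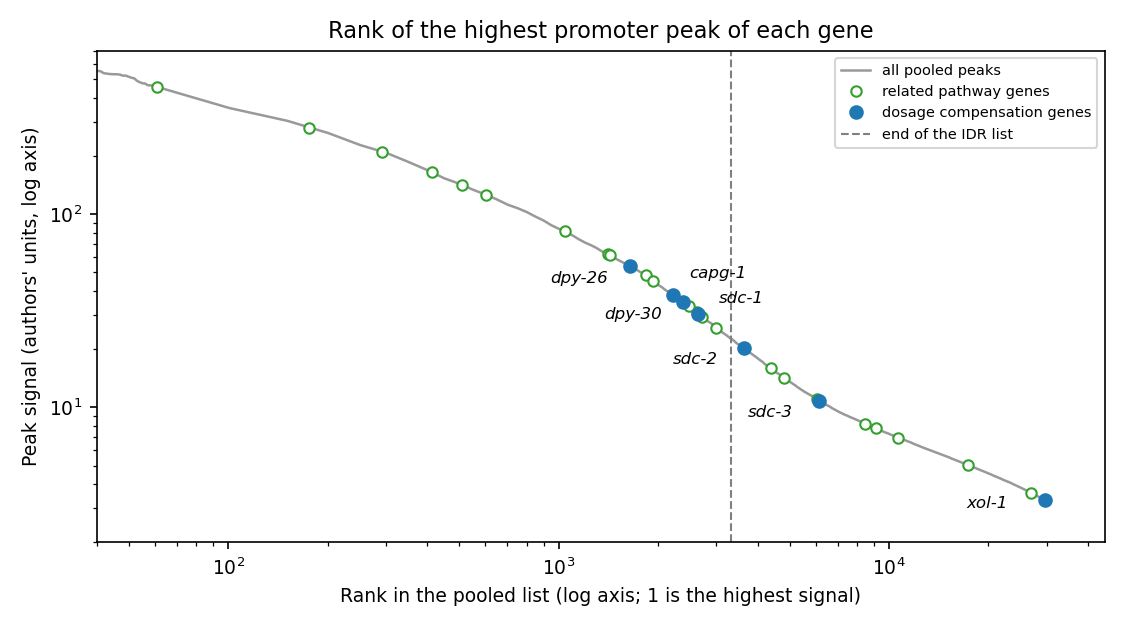
Signal of pooled peaks against their rank, both on log axes, from rank 40 on, with the highest promoter peak of each dosage compensation gene (filled) and of each related pathway gene (open). The filled points begin at rank 1643 with dpy-26, and those of sdc-2, sdc-3 and xol-1 lie to the right of the dashed line that ends the IDR list, while open points reach rank 61.

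Related genes of the pathway were described with 5 lists of 29 genes, of which 28 were matched, sea-3 having no match. The lists were chosen with earlier results of these data known. An IDR summit lay in the window of 15 of the 28 (53.6%), against the 13.4% of all protein-coding genes given above. In the upper 1665 peaks the count was 9, against 8.53% of all genes. Of the 15 summits, 9 were also in the window of another protein-coding gene, as were those of 46.2% of all called genes. For the 4 called dosage compensation genes the count was 0, and with so few genes neither count was set against the other.

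The other condensin subunits were called in 4 of 5 cases. They were hcp-6 (126, peak shared with let-630) and capg-2 (29.4, shared with tsfm-1) of condensin II, smc-4 (33.3, shared with F35G12.7), the SMC partner that DPY-27 replaces in the dosage compensation complex, and mix-1 (62.1, shared with R06F6.12), the SMC subunit that all 3 complexes of this kind use. The kleisin gene kle-2 had no entry in the window in any list. The mix-1 signal was 23.7 in replicate 1 and 37.0 in replicate 2, slightly above dpy-26 in both.

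The partners of DPY-30 were called in 5 of 7 cases. Their pooled signals were 454 at set-16 (rank 61, shared with drr-2), 279 at ash-2 (rank 176, shared with Y17G7B.20), 142 at set-2 (rank 509), 81.5 at rbbp-5 (shared with tpp-2) and 45.3 at wdr-5.1. SET-2 and SET-16 are the methyltransferases of these complexes, and ASH-2, RBBP-5 and WDR-5.1 are shared core subunits. Each of these signals was above the 35.0 of dpy-30 itself. The CXXC protein gene cfp-1 (pooled 11.0) and the demethylase gene utx-1 (pooled 15.9) were not called.

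In the list of histone H4 lysine 20 methylation and related genes, 2 of 3 were called. They were set-4 (210, rank 293), which encodes the enzyme that adds the second methyl group, the state DPY-21 acts on, and sir-2.1 (61.3). The latter is a deacetylase gene and was listed as related. The gene set-1, for the enzyme that adds the first methyl group, had no entry in the window.

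Upstream of xol-1, the genes that signal the number of X chromosomes against autosomes were called in 1 of 5 cases. This was ceh-39, a homeobox gene on X, with signals of 57.2 in replicate 1, 109 in replicate 2 and 165 in the pooled data, at rank 413. The T-box gene sea-1 (pooled 7.78), sea-2 (14.2) and the RNA-binding protein gene fox-1 (6.97) had entries in the pooled list and in both replicates, all outside the IDR list, and the nuclear receptor gene sex-1 had none. Genes of sex determination downstream were called in 3 of 8 cases, fem-1 (25.9, shared with drp-1), fem-2 (31.0) and fem-3 (48.1, shared with C01F6.14), which promote male fates. Their signals were all higher in replicate 2, with 19.2, 23.9 and 35.8, than in replicate 1, with 6.59, 5.57 and 12.9. Only fem-3 was among the 3331 highest in both. The secreted ligand gene her-1, tra-1, tra-2, tra-3 and mab-3 were not called. At her-1 and tra-3 no list had an entry in the window.

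**Figure D4:**
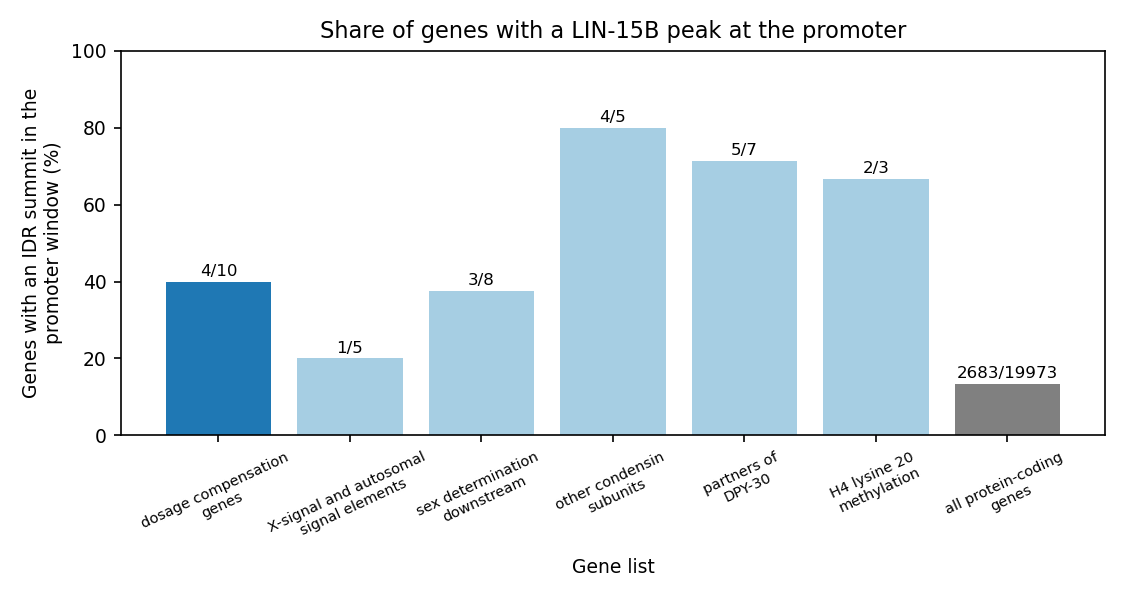
Share of genes with an IDR summit in the promoter window, in percent, for the 10 dosage compensation genes, the 5 related lists and all protein-coding genes, with called genes over matched genes above each bar. The dosage compensation bar is at 40%, the other lists run from 20% to 80%, and all protein-coding genes are at 13.4%. The gene lists were chosen with earlier results of these data known.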

How the data were processed

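Peaks of chromatin immunoprecipitation against eGFP-LIN-15B were used in build ce11. Per the text files deposited with the peaks, the replicate lists come from each replicate's alignment, the pooled list from both, and the IDR list from these 3. Which aligner, caller, control and threshold were used is not given in the sources used here. Each peak carries a signal, the authors' own deposited score on an unstated scale, and the −log10 q-value is also as deposited by the authors. Read depth is unknown, so no interval that needs it is given. The ce10 lists were not used.

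Summits (1-based) were set against 5' ends of protein-coding transcripts in Ensembl release 115 (WBcel235, the assembly of ce11). Trans-splicing can place an annotated 5' end downstream of initiation. Ranks are by signal within a list. Calls of members are counts beside the share of all 19973 genes, with no test, since there is 1 group of 2 replicates and the genes share its libraries. The replicate lists were compared at their 3331 highest peaks. The members, lists and motifs were chosen with earlier results of these data known. Named besides the members were genes that share or lie nearer to their peaks, the genes of 5 related lists, and the bound genes next to the highest member in signal. The calls were tested on planted summits, of which 200 of 200 inside windows were found and 0 of 200 outside were called. Python 3.11.15, numpy 2.4.6 and pandas 2.3.3 were used.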

Additional observations from a re-analysis of the deposited data

How the results depend on the processing

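The count of 4 dosage compensation genes with an IDR summit in the promoter window was 1 with 200 bp upstream (7.59% of all genes) and 1 in the upper part of the list (1665 peaks, 8.53% of all genes). Without replicate 1 it was 5, against 13.3% of all genes, and without replicate 2 it was 4, against 13.0%. It was 5 with 1000 bp upstream (16.2% of all genes) and 4 with peak intervals (14.4%). With the pooled list at double length it was 6 (18.8%), and with the outermost 5' end it was 4 (12.7%). The count of 4 called in both replicates was 1 with 200 bp upstream, against 6.31% of all genes. The 7 genes with a pooled summit became 3 with that window, against 23.1%. The 8 genes with an IDR summit within 5 kb became 5 within 2 kb, against 22.2%, and 4 in the upper part of the list, against 21.1%. The 15 related genes called became 9 in the upper part of the list, against 8.53%. For the related lists singly, 34 of 40 counts stayed within 1.5 times and 6 moved. With 200 bp upstream, the X-signal list fell from 1 to 0 and the H4 lysine 20 list from 2 to 1. In the upper part of the IDR list, sex determination downstream fell from 3 to 0 and other condensin subunits from 4 to 2. Without replicate 2, sex determination downstream fell from 3 to 1. At double length the X-signal list rose from 1 to 2. The pooled signal of each gene was the same in all 24 alternatives that gave one. Each of these caught the same deposited peak, so the equal values do not show how firm the signal is. With 200 bp upstream, sdc-1, sdc-2, dpy-30 and capg-1 had no pooled summit. G and C content stayed within its counting interval in 8 of 8. The window of 201 bases holds that of 101, so this says little of how firm the values are. With the wider window the content fell at all but xol-1. At dpy-26 it went from 48.5% to 40.8%, and at xol-1 it rose from 29.7% to 35.8%. The depth and the scale of the signal are unknown, so a gene outside the IDR list is not shown to be unbound. With 10 genes, 1 gene moves a share by 10 points. No paired analysis was possible because there is 1 group.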
